A study of Mus musculus with 31 samples.

Results

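The data described here are the levels of 44 genes of the cell division cycle in primary mouse microglia, 25 with roles in mitosis (from late G2 phase to cytokinesis) and 19 with roles in S phase (DNA replication and its preparation). The genes were looked up by symbol in a table of 54532 genes, in which all 44 were found, and all 44 were among the 13675 genes left by a filter on low counts. They were selected on measured values, since genes with mitotic roles were among the largest falls with HT-DNA in wild-type cells, and that comparison is therefore a description without a test. The study asked how microglia with and without cGAS, the enzyme that senses DNA in the cytosol, respond to tau fibrils or to herring testis DNA (HT-DNA). Microglia were shaken off mixed glial cultures of newborn mouse cortices, to which GM-CSF had been added so that microglia would divide, and came from wild-type (WT, *Cgas*+/+) or *Cgas* KO (*Cgas*-/-) mice. Cells of each genotype received vehicle, 0N4R tau fibrils at 2 µg per ml or HT-DNA at 1 µg per ml, with RNA taken after 6 h, which gave 6 groups of 3 libraries. Hippocampi of 7 non-transgenic (Ntg) and 6 P301S mice, which carry human tau with that mutation and were 8 to 9 months old, served as a further set of samples, and their *Cgas* genotype is not stated.

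Each microglial library held between 17037459 and 25174764 counts. *Cgas*, listed under its older symbol *Mb21d1*, had 434 to 812 counts in the 9 *Cgas*+/+ libraries and 71 to 180 in the 9 *Cgas*-/- libraries, and whether the remaining reads lie outside the deleted part of the gene was not tested. All 10 microglial markers examined were detected in every group. The labels do not say whether the libraries of a group come from separate cultures. A figure legend of the study gives 3 biologically independent samples per group, without saying whether these were separate cultures or animals. The p-values therefore measure the spread between these libraries, which may be partly technical. Genotype cannot be told apart from the litter or culture that gave the cells. Counting was not stated to use strand, and 13 of the 44 genes share exon bases with another gene, 11 of them with a protein-coding gene, so reads of both genes cannot be told apart there. In bulk RNA, fewer dividing cells and less of a transcript in each dividing cell cannot be told apart.

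Cells copy their DNA in S phase and separate the copies in mitosis. Before S phase, E2F transcription factors switch on genes for origin licensing, nucleotide supply and DNA polymerases, and later MuvB complexes with B-MYB and FOXM1 switch on the mitotic genes. When cells leave the cycle, the DREAM complex represses both groups, through E2F sites for the S-phase genes and through cell cycle homology region (CHR) elements for the mitotic genes, often beside CCAAT boxes. Microglia divide rarely in the healthy adult brain and readily in culture with growth factors such as GM-CSF.

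Promoter windows show how the groups differ in sequence, and 6 are printed because their genes stood near the ends of the lists with HT-DNA or between genotypes. Each runs 5′ to 3′ on the gene's strand from 250 bases before to 50 bases after the RefSeq start (build GRCm38.p6), and capitals mark matches, on either strand, to the CHR words TTTGAA and TTCGAA, the CCAAT box, and the E2F words TTCCCGC and TTGGCGC. *Cdc20* (chr4:118437294-118437593, minus strand) and *Cdk1* (chr10:69352863-69353162, minus strand) are mitotic genes with CHR words, and *Cenpe* (chr3:135212313-135212612, plus strand) is a mitotic gene without one. *Ccnb1*, *Nusap1* and *Birc5* also had windows without a CHR word, and these genes were lower with HT-DNA in *Cgas*+/+ cells. Whether the words go with the responses was not tested. *Rrm2* (chr12:24708004-24708303, plus strand), *Mcm5* (chr8:75109259-75109558, plus strand) and *Mcm6* (chr1:128359656-128359955, minus strand) are S-phase genes.
Cdc20: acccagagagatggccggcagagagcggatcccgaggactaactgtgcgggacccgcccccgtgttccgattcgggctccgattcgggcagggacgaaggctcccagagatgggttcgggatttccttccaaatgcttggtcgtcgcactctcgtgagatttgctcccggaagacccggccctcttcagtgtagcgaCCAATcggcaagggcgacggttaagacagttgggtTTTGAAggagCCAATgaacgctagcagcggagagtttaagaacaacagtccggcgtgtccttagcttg
Cdk1: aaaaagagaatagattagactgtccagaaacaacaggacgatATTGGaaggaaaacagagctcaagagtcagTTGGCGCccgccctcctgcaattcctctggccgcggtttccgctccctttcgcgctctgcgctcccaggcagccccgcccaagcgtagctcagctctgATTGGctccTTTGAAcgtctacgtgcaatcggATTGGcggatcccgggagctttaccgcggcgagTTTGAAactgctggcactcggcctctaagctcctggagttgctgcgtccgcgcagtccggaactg
Cenpe: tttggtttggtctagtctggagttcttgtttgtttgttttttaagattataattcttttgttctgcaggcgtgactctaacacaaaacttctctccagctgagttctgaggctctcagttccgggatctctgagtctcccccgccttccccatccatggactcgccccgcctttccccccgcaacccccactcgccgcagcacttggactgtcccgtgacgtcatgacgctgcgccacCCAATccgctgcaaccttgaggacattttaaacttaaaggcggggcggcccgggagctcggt
Rrm2: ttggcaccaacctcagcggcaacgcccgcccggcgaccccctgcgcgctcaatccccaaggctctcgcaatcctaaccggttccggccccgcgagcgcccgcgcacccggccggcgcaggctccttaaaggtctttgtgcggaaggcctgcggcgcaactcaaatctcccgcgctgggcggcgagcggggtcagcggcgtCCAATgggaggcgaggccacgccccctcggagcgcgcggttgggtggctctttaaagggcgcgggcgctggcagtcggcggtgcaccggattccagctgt
Mcm5: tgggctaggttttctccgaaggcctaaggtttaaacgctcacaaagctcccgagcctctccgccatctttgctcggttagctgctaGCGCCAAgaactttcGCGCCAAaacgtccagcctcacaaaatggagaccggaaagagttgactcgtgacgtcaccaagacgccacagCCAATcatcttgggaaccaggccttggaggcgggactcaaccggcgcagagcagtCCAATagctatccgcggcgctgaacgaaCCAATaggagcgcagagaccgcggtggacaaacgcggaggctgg
Mcm6: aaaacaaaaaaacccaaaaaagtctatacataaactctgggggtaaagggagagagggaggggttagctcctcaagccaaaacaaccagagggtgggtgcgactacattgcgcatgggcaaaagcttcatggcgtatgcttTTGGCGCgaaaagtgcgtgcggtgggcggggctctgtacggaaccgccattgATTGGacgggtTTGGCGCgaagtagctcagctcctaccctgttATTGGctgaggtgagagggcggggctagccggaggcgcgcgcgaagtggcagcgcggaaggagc
A window was found for 37 of the 44 genes. Of the 21 mitotic genes with a window, 17 (81%) held a CHR word, against 21.7% of the 27025 genes with a window and 3 of 16 S-phase genes (18.8%). A CCAAT box stood in the windows of 19 mitotic genes (90.5%) and 9 S-phase genes (56.2%), against 41.1% of all genes. An E2F word stood in those of 9 S-phase genes (56.2%) and 4 mitotic genes (19%), against 7.79% of all genes. Taking 1 window per gene, the CHR words of the mitotic genes began at a median position of -18 from the start and their CCAAT boxes at -78. A match is a string of letters and no evidence of binding, and where a word is missing, only this window was searched.

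Over the 6 groups the mitotic genes differed more between genotypes than between treatments, and the S-phase genes differed less uniformly. Levels are given as CPM, read counts relative to the TMM-scaled library size, and are compared between libraries but not between genes. The mean log2 CPM of the 25 mitotic genes was 3.57 ± 0.09 (SD, n = 3) in *Cgas*+/+ cells with vehicle, 3.04 ± 0.03 with tau and 2.75 ± 0.14 with HT-DNA. In *Cgas*-/- cells it was 1.91 ± 0.12 with vehicle, 1.44 ± 0.13 with tau and 1.64 ± 0.15 with HT-DNA, and every *Cgas*-/- library was below every *Cgas*+/+ library. For the 19 S-phase genes the mean log2 CPM was 3.65 ± 0.06, 3.17 ± 0.05 and 3.28 ± 0.09 in *Cgas*+/+ cells in the same order of treatments. It was 3.22 ± 0.11, 2.82 ± 0.09 and 3.01 ± 0.05 in *Cgas*-/- cells, where the vehicle libraries overlapped those of treated *Cgas*+/+ cells.

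**Figure D1:**
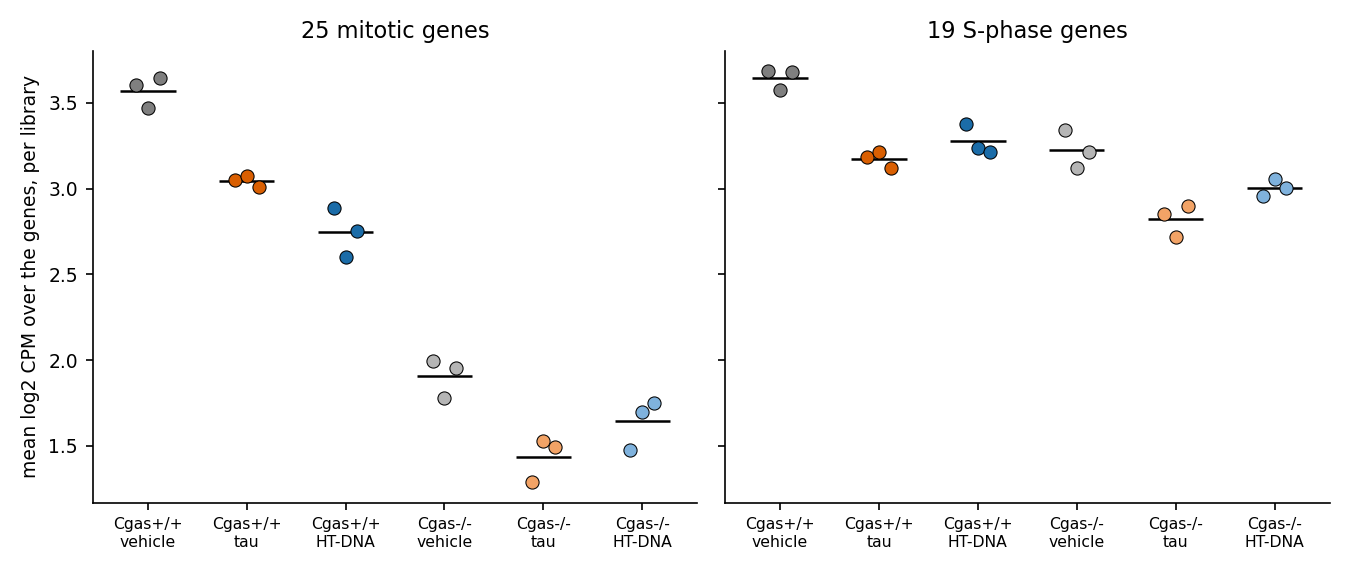
Mean log2 CPM over the 25 mitotic genes (left) and the 19 S-phase genes (right), 1 point per library, with the group mean as a line. The vertical axis does not start at 0. The 9 *Cgas*-/- libraries lie below the 9 *Cgas*+/+ libraries for the mitotic genes, between 1.29 and 2.0 against 2.60 and 3.64.

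HT-DNA in *Cgas*+/+ cells is the comparison that chose the genes. There, 23 of 25 mitotic genes were lower with an adjusted p under 0.05 (24.7% of all genes tested were), 7 of them by more than 1 on the log2 scale (2.79% of all genes), and 1, *Cenpe*, was higher. Their median log2 fold change was -0.83, against -0.03 for all genes tested, and 23 had HT-DNA libraries that all lay below the vehicle libraries (28.5% of all genes).

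Among the cyclins and kinases that drive entry into mitosis, *Ccna2*, the cyclin of S phase and G2 whose exons overlap *Exosc9* on the opposite strand, was at 13, 12.7 and 11.8 CPM with vehicle, 7.53, 8.41 and 7.21 with tau and 7.98, 5.6 and 3.77 with HT-DNA in *Cgas*+/+ cells. *Ccnb1*, the cyclin partner of *Cdk1* in mitosis, was at 12.4, 12.7 and 12.1 CPM with vehicle, 7.26, 7.37 and 8.45 with tau and 6.03, 4.79 and 5.73 with HT-DNA. Both cyclins were lower in every treated library than in every vehicle library, and HT-DNA differed from vehicle by -1.11 (standard error 0.16) for *Ccna2* and -1.17 (standard error 0.14) for *Ccnb1* on the log2 scale. *Cdk1*, the kinase that both cyclins activate, was at 22.7, 17.6 and 21.5 CPM with vehicle, 16.9, 20 and 18.8 with tau and 20.3, 19.8 and 23.6 with HT-DNA. Its 3 groups overlapped, and HT-DNA differed from vehicle by 0.04 (standard error 0.10), the second highest of the mitotic genes. *Plk1*, a kinase of mitotic entry and spindle assembly that shares exon bases with the opposite-strand transcript Gm44985, was at 6.60, 9.08 and 10.6 CPM with vehicle, 6.27, 5.48 and 7.15 with tau and 5.98, 4.15 and 4.64 with HT-DNA. *Aurka*, the kinase of centrosomes and spindle poles, was at 6.38, 5.93 and 7.23 CPM with vehicle, 5.13, 5.06 and 4.77 with tau and 3.53, 3.93 and 3.88 with HT-DNA. The HT-DNA libraries of both kinases were all below the vehicle libraries, whereas 1 tau library overlapped them for *Plk1*.

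*Cenpe* and *Cenpf*, both proteins of the kinetochore, through which chromosomes attach to the spindle, were the 2 ends of the mitotic list. *Cenpe* was at 19.5, 17.9 and 22.3 CPM with vehicle, 18.1, 18.9 and 16.3 with tau and 23.0, 24.5 and 27.9 with HT-DNA in *Cgas*+/+ cells, and differed by 0.34 (standard error 0.10) with HT-DNA. *Cenpf* was at 9.79, 8.70 and 10.7 CPM with vehicle, 5.18, 5.29 and 5.49 with tau and 3.97, 2.15 and 2.57 with HT-DNA, and differed by -1.75 (standard error 0.20). Every HT-DNA library was above the vehicle libraries for *Cenpe* and below them for *Cenpf*. *Birc5*, the survivin subunit of the chromosomal passenger complex, was at 7.27, 5.41 and 7.34 CPM with vehicle, 4.80, 3.88 and 3.52 with tau and 3.15, 2.10 and 3 with HT-DNA. All its treated libraries lay below those with vehicle. *Mki67*, the proliferation antigen that coats mitotic chromosomes, was at 71.4, 64.8 and 74.5 CPM with vehicle, 45.8, 49.1 and 46 with tau and 41.5, 29.1 and 38.8 with HT-DNA. *Top2a*, the topoisomerase that untangles sister chromatids, was at 42.6, 44 and 44.9 CPM with vehicle, 33.0, 31.9 and 30.2 with tau and 31.0, 20.8 and 25.3 with HT-DNA. *Mki67* formed 3 separate ranges, and the tau and HT-DNA libraries of *Top2a* overlapped.

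Of the genes of mitotic exit and cytokinesis, *Cdc20*, an activator of the anaphase-promoting complex that shares 53 exon bases with *Elovl1* on the opposite strand, was at 12.2, 8.31 and 10.8 CPM with vehicle, 6, 5.96 and 5.86 with tau and 4.13, 2.75 and 4.31 with HT-DNA. It differed by -1.48 (standard error 0.18) with HT-DNA, next to *Cenpf* in size, and its 3 groups did not overlap. *Ube2c*, the ubiquitin-conjugating enzyme of the same complex, whose exons overlap *Tnnc2* on the opposite strand, was at 13, 9.86 and 12.4 CPM with vehicle, 9.55, 9.59 and 6.63 with tau and 6.95, 7 and 6.99 with HT-DNA. *Kif20a*, a kinesin of cytokinesis that shares 1271 exon bases with *Cdc23* on the opposite strand, was at 8.55, 8.18 and 8.69 CPM with vehicle, 4.42, 7.09 and 5.29 with tau and 3.48, 3.5 and 3.88 with HT-DNA. Its HT-DNA libraries were below all other *Cgas*+/+ libraries, as those of *Ube2c* were below its vehicle libraries. The remaining 12 mitotic genes were lower with HT-DNA, with log2 fold changes from -1.03 for *Kif23* to -0.32 for *Tpx2*.

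More S-phase genes were lower than higher with HT-DNA. In *Cgas*+/+ cells 11 of 19 were lower (24.7% of all genes tested were), 2 of them by more than 1 (2.79% of all genes). Another 4 were higher, no larger a share than the 22.8% of all genes tested that were higher. The median log2 fold change was -0.51. *Mcm6*, a subunit of the replicative helicase, was at 71.5, 62.8 and 71.6 CPM with vehicle, 69.5, 67.3 and 71.2 with tau and 114, 118 and 115 with HT-DNA. *Cdt1*, which loads that helicase, was at 42.7, 39.4 and 38.4 CPM with vehicle, 37.4, 41.1 and 37.8 with tau and 54.4, 60.3 and 61.2 with HT-DNA. For both licensing genes the tau libraries overlapped those with vehicle and the HT-DNA libraries stood above all others, by 0.75 (standard error 0.05) for *Mcm6* and 0.54 (standard error 0.06) for *Cdt1*. *Pcna*, the sliding clamp of DNA polymerases, was at 238, 218 and 222 CPM with vehicle, 181, 190 and 188 with tau and 270, 276 and 272 with HT-DNA. Its 3 groups stood apart, below vehicle with tau and above it with HT-DNA. *Gins2*, a subunit of the helicase's GINS complex, was the fourth gene that was higher with HT-DNA (0.47, standard error 0.13), but it shares 2758 exon bases with *Gse1* on the opposite strand.

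The other subunits of the same helicase went the opposite way to *Mcm6*. *Mcm2* was at 21.2, 22.1 and 23.0 CPM with vehicle, 16.7, 16.8 and 17.2 with tau and 15, 15.5 and 16 with HT-DNA in *Cgas*+/+ cells. *Mcm5* was at 15.7, 13.6 and 16.5 CPM with vehicle, 10.4, 9.64 and 9.07 with tau and 11.9, 8.51 and 9.61 with HT-DNA. Every treated library was below every vehicle library for both, and the log2 fold changes with HT-DNA of *Mcm2*, *Mcm3*, *Mcm4*, *Mcm5* and *Mcm7* lay between -0.92 and -0.34. *Cdc6*, the other loader of the helicase, was at 1.60, 1.73 and 1.67 CPM with vehicle, 1.09, 0.803 and 0.726 with tau and 0.978, 1.13 and 0.546 with HT-DNA. It had 8 to 40 raw counts per library over all groups, the fewest of the 44 genes, so its values carry a large counting error.

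*Rrm2*, the regulated subunit of ribonucleotide reductase, was at 6.78, 7.92 and 8.15 CPM with vehicle, 4.53, 4.44 and 3.27 with tau and 3.91, 2.26 and 2.89 with HT-DNA in *Cgas*+/+ cells, and was the S-phase gene with the lowest log2 fold change with HT-DNA, -1.33 (standard error 0.18). *Chek1*, the checkpoint kinase of stalled replication, was at 2.22, 1.64 and 2 CPM with vehicle, 0.491, 0.898 and 1.24 with tau and 1.2, 0.592 and 0.765 with HT-DNA, from 9 to 50 raw counts over all groups. In both genes the treated libraries lay below the vehicle libraries. *Tyms*, thymidylate synthase, was at 5.49, 4.28 and 3.94 CPM with vehicle, 3.71, 3.21 and 3.78 with tau and 3.86, 3.82 and 3.22 with HT-DNA. Its vehicle libraries lay just above all treated ones. Among the regulators of S-phase entry, *E2f1*, an activating E2F factor, was at 29.2, 30.2 and 28.5 CPM with vehicle, 26.3, 26.7 and 24.6 with tau and 20, 19.2 and 20.4 with HT-DNA, and its 3 groups did not overlap. *Ccne1* and *Ccne2* encode the E cyclins, which start replication with *Cdk2*. *Ccne1* was at 5.63, 6.4 and 5.13 CPM with vehicle, 4.97, 4.73 and 5.70 with tau and 4.13, 6.30 and 6.50 with HT-DNA, with overlap of all groups. *Ccne2*, whose exons overlap *Ints8* on the opposite strand, was at 2.66, 2.38 and 3.45 CPM with vehicle, 1.64, 1.37 and 0.726 with tau and 3.04, 1.51 and 0.983 with HT-DNA. Its tau libraries lay below the vehicle libraries and its HT-DNA libraries overlapped them.

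**Figure D2:**
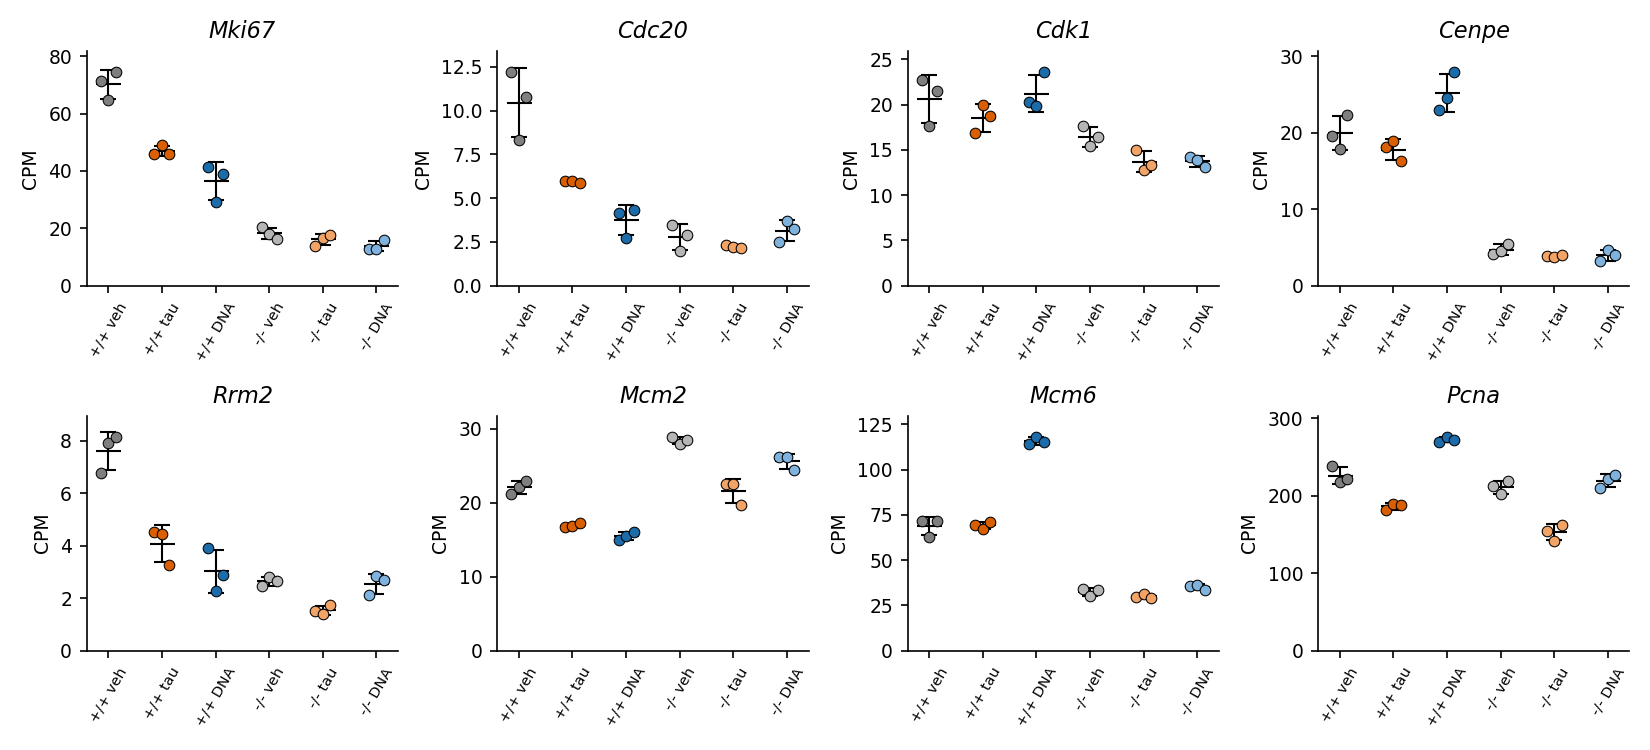
CPM of 8 genes in each of the 18 libraries (points), with the group mean and SD (n = 3) and each vertical axis starting at 0. In *Cgas*+/+ cells HT-DNA libraries are lower than vehicle for *Mki67*, *Cdc20*, *Rrm2* and *Mcm2*, higher for *Cenpe*, *Mcm6* and *Pcna*, and overlap them for *Cdk1*. *Mcm2* is the gene of the 8 that stands higher in *Cgas*-/- than in *Cgas*+/+ cells under every treatment.

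Tau fibrils in *Cgas*+/+ cells share the vehicle libraries with the comparison above and are also described without a test. With an adjusted p under 0.05, 18 of 25 mitotic genes were lower (12.2% of all genes tested) and 0 higher (15.8% of all genes), with a median log2 fold change of -0.51 and 0 lower by more than 1 (0.527% of all genes). Likewise, 12 of 19 S-phase genes were lower and 0 higher, with a median of -0.38, and *Ccne2* (-1.17) and *Chek1* (-1.14) passed 1. All 25 mitotic and 18 of 19 S-phase fold changes were negative (51.6% of all genes), the exception being *Mcm6* at 0.02. *Mcm6*, *Cdt1* and *Gins2*, which were higher with HT-DNA, had values with tau between -0.08 and 0.02, and *Pcna* had -0.28.

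In *Cgas*-/- cells, whose libraries are not part of the comparison the genes were selected on, HT-DNA changed 1 of the 44 genes in edgeR's quasi-likelihood test with adjustment over all genes (0.278% of all genes tested were lower and 1.04% higher). That gene was *Bub1b*, a kinase of the spindle checkpoint, which was at 8.99, 7.82 and 6.91 CPM with vehicle and 5.88, 5.06 and 4.76 with HT-DNA. The groups did not overlap, and *Bub1b* fell by 0.60 in log2 (standard error 0.13, adjusted p = 0.0184 from edgeR). The call was lost without vehicle replicate 1 or 2 or without HT-DNA replicate 2 or 3, each of which left 0 mitotic genes called. At an unadjusted p under 0.05 there were 8 of 25 mitotic and 7 of 19 S-phase genes, against 1688 of all 13675 genes tested. DESeq2, whose share over all genes is not given here, also called 1 mitotic and 0 S-phase genes. The medians were -0.26 for the mitotic and -0.16 for the S-phase genes, against 0.01 for all genes, and 22 of 25 and 16 of 19 fold changes were negative (47% of all genes). The HT-DNA libraries all lay below the vehicle libraries for 10 mitotic and 7 S-phase genes (6.76% of all genes). *Cdc20* was at 3.46, 1.98 and 2.90 CPM with vehicle and 2.49, 3.69 and 3.26 with HT-DNA, with overlap, and *Mcm6* was at 34.1, 30.1 and 33.3 CPM with vehicle and 35.5, 36.3 and 33.7 with HT-DNA, also with overlap.

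Tau fibrils in *Cgas*-/- cells lowered 12 of 19 S-phase genes and 9 of 25 mitotic genes in edgeR's quasi-likelihood test, against 5.48% of all genes tested that were lower, and raised 0 (11.2% of all genes were higher). By more than 1 it lowered 1 of each (0.278% of all genes). The median log2 fold changes were -0.40 for the S-phase and -0.44 for the mitotic genes, against 0.01 for all genes. The S-phase genes that fell were *Mcm2*, *Mcm3*, *Mcm4*, *Mcm5* and *Mcm7* of the helicase, the loaders *Cdc6* and *Cdt1*, *Gins2*, the polymerase subunit gene *Pola1*, *Pcna*, *Rrm1* and *Rrm2*. *Pcna* was at 212, 202 and 219 CPM with vehicle and 155, 142 and 162 with tau. The groups stood apart, and *Pcna* fell by 0.46 in log2 (standard error 0.05, adjusted p = 8.68e-09 from edgeR). *Mcm2* was at 28.9, 28 and 28.5 CPM with vehicle and 22.5, 22.5 and 19.7 with tau, a fall of 0.40 (standard error 0.07, adjusted p = 3.7e-05 from edgeR). *Cdc6* was at 2.01, 0.938 and 1.19 CPM with vehicle and 0.617, 0.503 and 0.509 with tau, and fell by 1.33 (standard error 0.37, adjusted p = 0.0111 from edgeR), the only S-phase gene past 1. For *Mcm2* and *Cdc6* as well, every tau library lay below every vehicle library, as it did for 13 S-phase and 16 mitotic genes in all (12.1% of all genes). *Mcm6*, *Ccne1*, *Ccne2*, *E2f1*, *Tyms*, *Fen1* and *Chek1* did not pass, with log2 fold changes from -0.41 for *Tyms* to 0.00 for *Ccne1*.

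The 9 mitotic genes that fell with tau in *Cgas*-/- cells were *Top2a*, *Ccna2*, *Ccnb2*, *Kif11*, *Kif23*, *Kif4*, *Tpx2*, *Birc5* and *Racgap1*. Of 23 alternative fits, 20 lost the call of *Kif23* (adjusted p = 0.0489 from edgeR), 11 that of *Ccnb2* (adjusted p = 0.0463 from edgeR), 5 each those of *Birc5* and *Tpx2*, 4 that of *Kif4*, 2 that of *Racgap1*, and none those of *Top2a*, *Ccna2* and *Kif11*. *Top2a* was at 14, 11.7 and 13.2 CPM with vehicle and 8.51, 8.21 and 9.51 with tau. Its groups did not overlap, and it fell by 0.56 in log2 (standard error 0.11, adjusted p = 0.000452 from edgeR). *Kif11*, the kinesin that pushes spindle poles apart, fell by 0.77 (standard error 0.18, adjusted p = 0.00201 from edgeR), and *Kif4*, a chromosome kinesin whose exons overlap *Pdzd11* on the opposite strand, fell by 1.03 (standard error 0.30, adjusted p = 0.0171 from edgeR). *Kif4* had only 23 to 41 raw counts per *Cgas*-/- library with vehicle and 14 to 28 with tau, so its values carry a large counting error. All 25 mitotic fold changes were negative (48.4% of all genes), and *Mki67* and *Cdc20* had -0.17 (standard error 0.12) and -0.32 (standard error 0.22). The mitotic count rested on single libraries, with 4 genes called without vehicle replicate 1, 5 without vehicle replicate 3 and 5 without tau replicate 1, whereas the S-phase count stayed between 11 and 13.

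**Figure D3:**
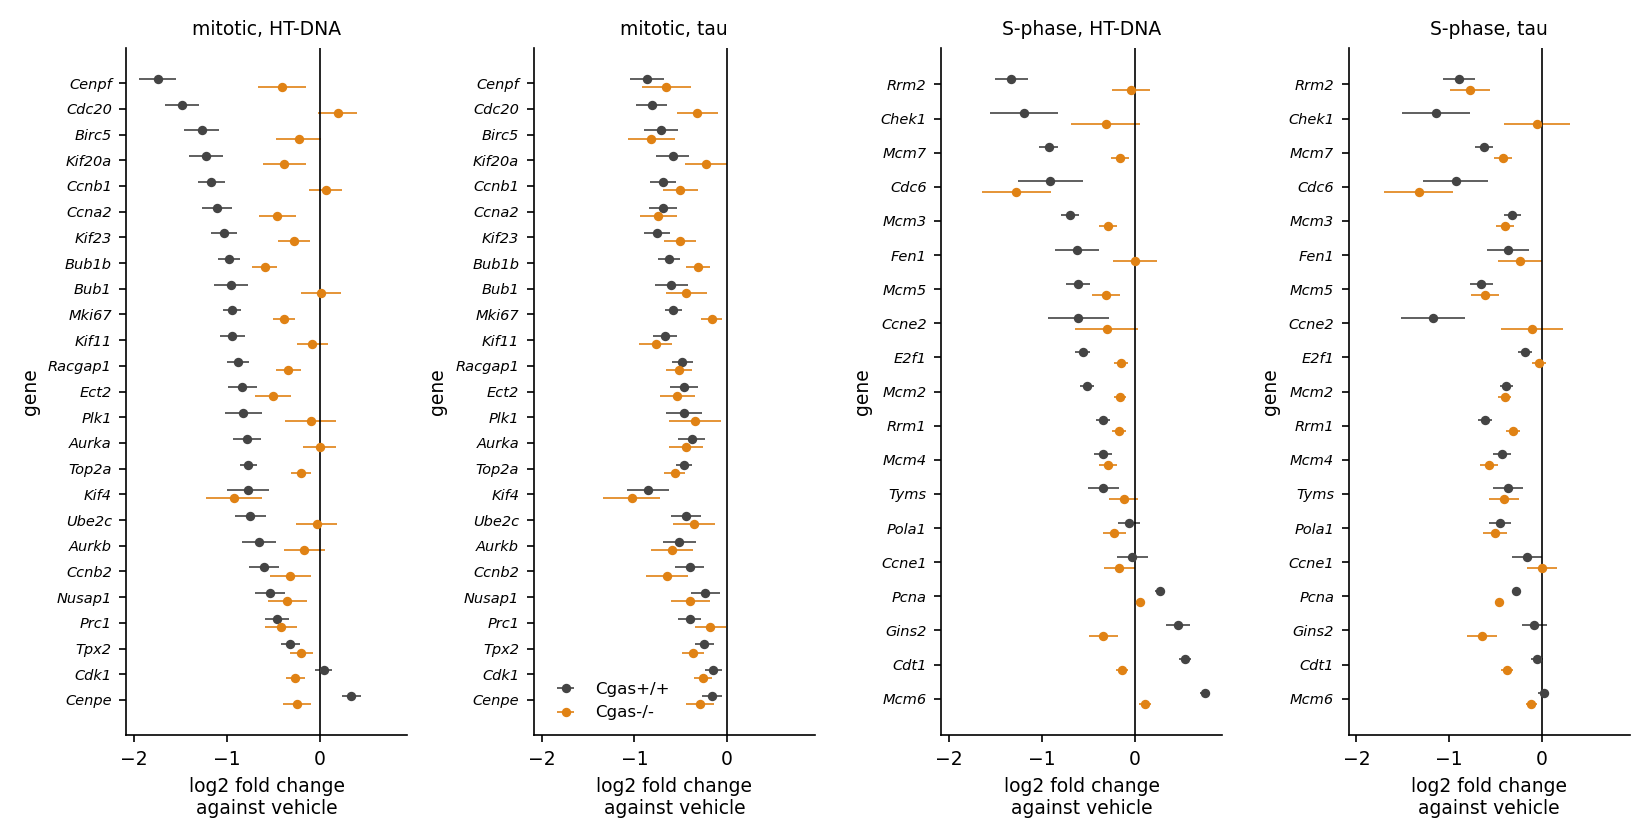
Log2 fold change with HT-DNA or tau against vehicle (horizontal axis) of each mitotic gene (left 2 panels) and S-phase gene (right 2 panels) in *Cgas*+/+ cells (dark) and *Cgas*-/- cells (orange), with bars of 1 standard error. Genes are in the order of the HT-DNA response of *Cgas*+/+ cells, which chose them. With HT-DNA the *Cgas*-/- points lie nearer to 0 for most mitotic genes.

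With tau present in both genotypes, a comparison that shares no library with the one that chose the genes, all 25 mitotic genes were lower in *Cgas*-/- than in *Cgas*+/+ cells (26.2% of all genes tested were lower), 23 of them by more than 1 on the log2 scale (7.41% of all genes). The median was -1.54, a 2.91-fold lower level, against 0.01 for all genes, and each of the 25 was lower in all 3 *Cgas*-/- libraries than in all 3 *Cgas*+/+ libraries (29.1% of all genes). The count of 25 did not change when any library was left out or with DESeq2.

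*Cenpe* was at 3.92, 3.77 and 3.99 CPM in the *Cgas*-/- cells with tau, and in *Cgas*+/+ cells no library was below 16.3. It differed by -2.19 in log2 (standard error 0.13, adjusted p = 2.28e-14 from edgeR), so the gene that was higher with HT-DNA in *Cgas*+/+ cells was among those furthest below in *Cgas*-/- cells. *Ccnb2*, another B cyclin, had the lowest value, -2.23 (standard error 0.19, adjusted p = 1.29e-10 from edgeR). *Mki67* was at 14, 16.6 and 17.7 CPM in *Cgas*-/- cells with tau, against at least 45.8 in *Cgas*+/+ cells with tau, and differed by -1.54 (standard error 0.10, adjusted p = 7.68e-13 from edgeR). *Top2a* (-1.86, standard error 0.10), *Plk1* (-2.07, standard error 0.24), *Birc5* (-2.02, standard error 0.23) and *Ube2c* (-2.05, standard error 0.20) differed by more. In *Cgas*-/- cells with tau, *Plk1* was at 0.750, 1.68 and 2 CPM, *Birc5* at 0.926, 0.796 and 1.25 and *Ube2c* at 1.59, 2.60 and 2.03. *Ccna2* was at 2.43, 2.01 and 2.31 CPM, *Ccnb1* at 1.98, 2.18 and 2.03 and *Aurka* at 1.41, 1.80 and 1.92, each below every *Cgas*+/+ library. *Cdc20* was at 2.34, 2.18 and 2.15 CPM, *Kif20a* at 1.85, 3.10 and 1.84 and *Cenpf* at 1.06, 1.68 and 1.13. The 2 mitotic genes that did not pass 1 were *Bub1b* (-0.64, standard error 0.12) and *Cdk1* (-0.44, standard error 0.10, adjusted p = 0.000463 from edgeR). *Cdk1* was at 15, 12.8 and 13.3 CPM against 16.9, 20 and 18.8, so this gene, whose groups overlapped with HT-DNA in *Cgas*+/+ cells, also stood lower in every *Cgas*-/- library.

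Of the 19 S-phase genes, 10 were lower (26.2% of all genes were) and 1 was higher (25.2% of all genes) in *Cgas*-/- than in *Cgas*+/+ cells with tau. Of these, 4 were lower by more than 1 (7.41% of all genes), and the median of the 19 was -0.28. The 4 were *Rrm2* (-1.40, standard error 0.20), *Gins2* (-1.24, standard error 0.15), *Mcm6* (-1.21, standard error 0.06, adjusted p = 4.6e-16 from edgeR) and *Mcm5* (-1.19, standard error 0.14). *Rrm2* was at 1.5, 1.38 and 1.72 CPM, *Mcm6* at 29.7, 31.3 and 29 and *Mcm5* at 3.57, 4.73 and 4.38 in the *Cgas*-/- cells with tau. These groups did not overlap those of *Cgas*+/+ cells. *Mcm2* was the exception at 22.5, 22.5 and 19.7 CPM against 16.7, 16.8 and 17.2, a difference of 0.35 (standard error 0.07, adjusted p = 0.000156 from edgeR) with every *Cgas*-/- library higher. Subunits of a single helicase, whose proteins act as a ring of MCM2 to MCM7, thus ran from -1.21 for *Mcm6* and -1.19 for *Mcm5* through -0.38 for *Mcm4*, -0.25 for *Mcm3* and -0.05 for *Mcm7* to 0.35 for *Mcm2*. *Cdt1* was at 27.2, 25.9 and 28.7 CPM, *Pcna* at 155, 142 and 162 and *E2f1* at 22.2, 24.2 and 21.3 in *Cgas*-/- cells with tau, each lower in every library than in *Cgas*+/+ cells. *Cdc6* was at 0.617, 0.503 and 0.509 CPM, *Chek1* at 1.63, 0.670 and 1.53, *Ccne1* at 4.41, 5.91 and 4.77, *Ccne2* at 1.98, 1.05 and 2.39 and *Tyms* at 3.75, 3.18 and 4.38. None of these 5 passed the test, although the 3 libraries of *Cdc6* lay below those of *Cgas*+/+ cells, with log2 differences from -0.68 for *Cdc6* to 0.54 for *Ccne2*. Leaving out 1 library gave between 9 and 11 S-phase genes.

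**Figure D4:**
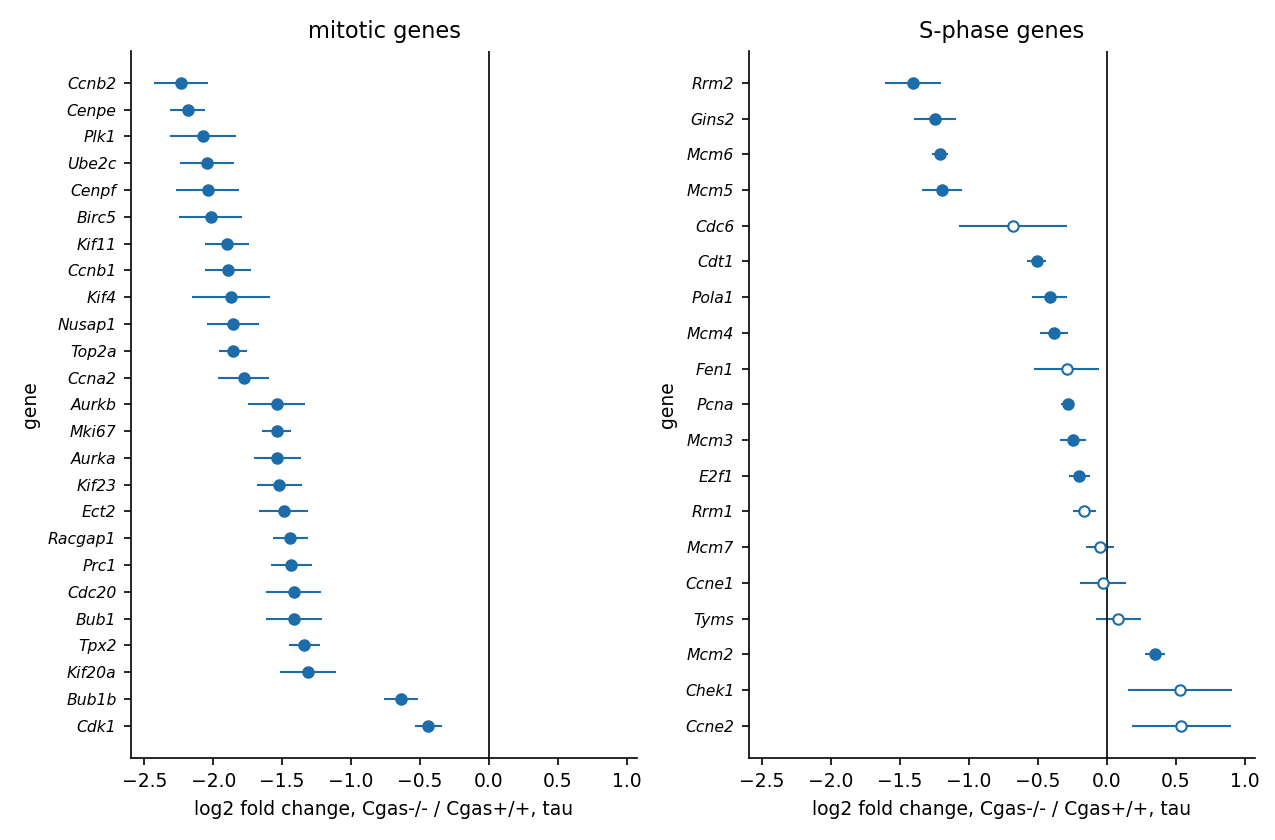
Log2 fold change of *Cgas*-/- over *Cgas*+/+ cells with tau (horizontal axis) for the 25 mitotic genes (left) and the 19 S-phase genes (right), with bars of 1 standard error. Filled points have an adjusted p under 0.05 in edgeR. The mitotic genes run from -2.23 to -0.44, and the S-phase genes from -1.40 to 0.54.

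The same genotypes differed in the other treatments, whose *Cgas*+/+ libraries were used to choose the genes, so these values are descriptions. With vehicle, 25 mitotic genes were lower in *Cgas*-/- cells (27.3% of all genes tested), 23 by more than 1 (7.35% of all genes), with a median of -1.73, and 10 S-phase genes were lower and 1, *Mcm2*, higher (24.7% of all genes were higher), with a median of -0.35. With HT-DNA, 24 mitotic genes were lower (30.1% of all genes), 13 by more than 1 (11.8% of all genes), with a median of -1.01, and 7 S-phase genes were lower and 3 higher (33.1% of all genes were higher). The 3 were *Mcm2* (0.72), *Mcm7* (0.51) and *Mcm3* (0.24). With RLE scaling 8 S-phase genes were lower and 2 higher. *Cenpe* with HT-DNA had the largest genotype difference of any mitotic gene, -2.65 (standard error 0.12), at 3.23, 4.61 and 4.05 CPM in *Cgas*-/- cells, while *Cdc20*, at 2.49, 3.69 and 3.26 CPM, overlapped the *Cgas*+/+ libraries with HT-DNA (-0.23, standard error 0.20).

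The mitotic genes of *Cgas*-/- cells had these values with vehicle and with HT-DNA. *Mki67* was at 20.3, 18.1 and 16.2 CPM with vehicle and 12.8, 12.8 and 16 with HT-DNA, and *Top2a* at 11.2, 10.9 and 11.7 CPM with HT-DNA. With vehicle and then HT-DNA, *Ccna2* was at 3.91, 3.54 and 3.83 and at 2.38, 2.73 and 3.05 CPM, *Ccnb1* at 3.91, 2.03 and 2.90 and at 2.70, 2.97 and 3.47, and *Cdk1* at 17.6, 15.4 and 16.4 and at 14.2, 13.9 and 13.1. For *Mki67*, *Ccna2* and *Cdk1* the 3 HT-DNA libraries lay below those with vehicle, and for *Ccnb1* they overlapped. In the same order *Plk1* was at 2.07, 1.51 and 2.11 and at 1.54, 2.01 and 1.76 CPM, *Aurka* at 1.95, 2.5 and 2.51 and at 2.23, 2.21 and 2.55, and *Kif20a* at 2.68, 2.45 and 2.82 and at 1.38, 2.21 and 2.42. *Birc5* was at 1.73, 1.98 and 1.58 and at 1.38, 1.73 and 1.38 CPM, *Ube2c* at 2.34, 2.5 and 3.08 and at 1.96, 2.25 and 3.51, and *Cenpe* with vehicle at 4.07, 4.59 and 5.50. Of these, only *Kif20a* had groups that did not overlap. *Cenpf* was at 2.07, 1.82 and 2.20 CPM with vehicle and 0.901, 2.05 and 1.55 with HT-DNA.

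Among the S-phase genes of *Cgas*-/- cells, in the order vehicle and HT-DNA, *Mcm2* was at 28.9, 28 and 28.5 and at 26.2, 26.2 and 24.4 CPM, *Mcm5* at 7.59, 5.73 and 6.25 and at 4.61, 5.86 and 5.18, and *Rrm2* at 2.46, 2.81 and 2.64 and at 2.12, 2.85 and 2.68. *Pcna* was at 210, 222 and 227 CPM with HT-DNA, *E2f1* at 25, 21.5 and 22.7 and at 23.5, 20 and 19.4, and *Cdt1* at 34.5, 34.3 and 37.3 and at 29.6, 32.5 and 34.5. Only *Mcm2* had groups that did not overlap here. *Tyms* was at 5.30, 5.37 and 4.44 and at 4.66, 4.57 and 4.64 CPM, *Ccne1* at 5.64, 4.80 and 4.71 and at 4.03, 4.25 and 5.14, and *Ccne2* at 1.90, 1.46 and 2.46 and at 1.32, 1.85 and 1.55. *Cdc6* was at 0.636, 0.722 and 0.334 CPM with HT-DNA and *Chek1* at 1.67, 0.990 and 1.32 and at 0.636, 1.12 and 1.38. The *Cdc6* libraries with HT-DNA lay below those with vehicle at a log2 fold change of -1.27 (standard error 0.37), which did not pass the test (adjusted p = 0.102 from edgeR).

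**Figure D5:**
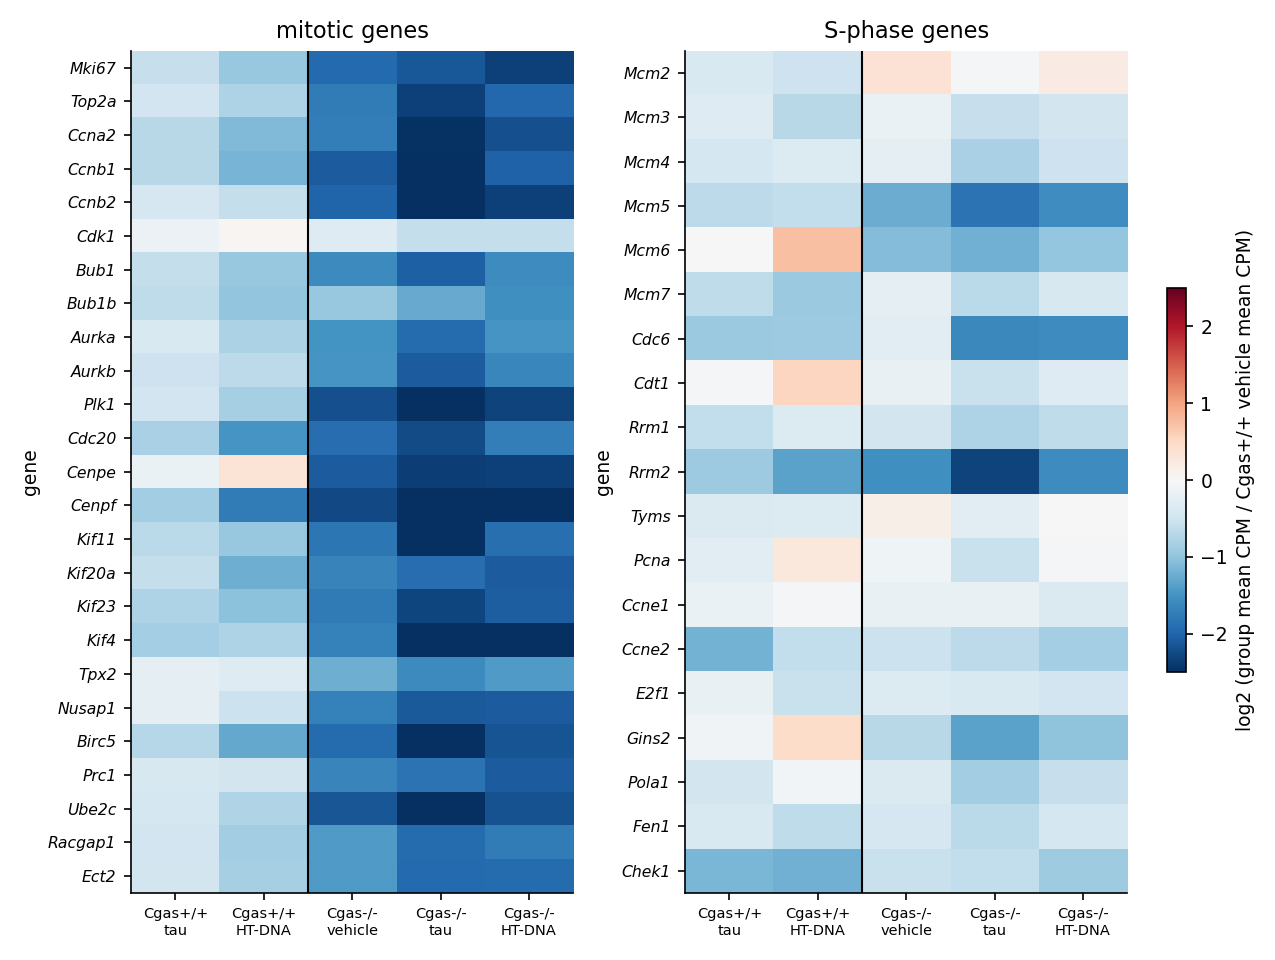
Log2 ratio of each group's mean CPM to that of *Cgas*+/+ cells with vehicle for the 25 mitotic genes (left) and the 19 S-phase genes (right), in 5 groups, with blue for lower and red for higher and the darkest blue for values at or below the end of the scale. *Cgas*-/- columns are blue for every mitotic gene, and *Cenpe* is red with HT-DNA in *Cgas*+/+ cells. Among the S-phase genes *Mcm6*, *Cdt1*, *Gins2* and *Pcna* are red with HT-DNA in *Cgas*+/+ cells, and *Mcm2* is red in *Cgas*-/- cells with vehicle or HT-DNA.

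Markers of other cells moved with genotype too. The summed CPM of 8 astrocyte markers, 6 of which passed the filter, was 5.19 to 14.9 in *Cgas*+/+ libraries and 1.30 to 2.65 in *Cgas*-/- libraries, with *Sox9* at 0 in all *Cgas*-/- libraries with tau. Not every astrocyte marker was lower in *Cgas*-/- cells. Of the 6 tested, 1 had a positive log2 difference with vehicle, 2 with HT-DNA and 0 with tau. *Slc1a2* had the highest, 1.63 with vehicle and 2.05 with HT-DNA. In *Cgas*+/+ cells the astrocyte sum was also 5.19 to 6.20 with vehicle, 9.07 to 10.8 with tau and 11.6 to 14.9 with HT-DNA. The sum of 8 fibroblast and vascular markers, 3 of which passed, was 1.80 to 6.46 in *Cgas*+/+ and 0.335 to 1.01 in *Cgas*-/- libraries, with *Col3a1*, *Lum* and *Cldn5* at 0 in *Cgas*-/- libraries with vehicle and *Col1a1* at 0 in those with tau. The 10 microglial markers summed to 6270 to 6600 CPM in *Cgas*+/+ and 4180 to 4690 in *Cgas*-/- libraries. The 7 markers of the oligodendrocyte lineage, 5 of which passed, summed to 510 to 619 and 540 to 605, mostly *Cspg4* at 525 ± 12.2 (SD, n = 3) and 512 ± 27.5 with vehicle, with *Olig2* at 0 in every *Cgas*-/- library and *Olig1* at 0 in those with HT-DNA. The 5 neuronal markers, 1 of which passed, summed to at most 2.24 CPM, with *Syt1* at 0 in *Cgas*+/+ libraries with vehicle and *Tubb3* at 0 in *Cgas*-/- libraries with tau. The part of these cells in the genotype differences of the 44 genes was not tested.

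The test of whether the response itself differed between genotypes rests on the libraries that chose the genes and is given as a description. For HT-DNA, the difference of the responses (*Cgas*-/- minus *Cgas*+/+) had an adjusted p under 0.05 for 15 of 25 mitotic genes, 14 of them positive (17.4% of all genes tested) and 1, *Cenpe*, negative (16.6% of all genes). It did for 9 of 19 S-phase genes, with *Mcm2*, *Mcm3*, *Mcm7*, *Rrm2* and *E2f1* positive and *Mcm6*, *Cdt1*, *Pcna* and *Gins2* negative. The largest was that of *Cdc20*, 1.68 (standard error 0.28). For tau, 0 of 25 mitotic genes passed in edgeR and 0 in DESeq2, with 1 at an unadjusted p under 0.05 (2726 of all 13675 genes). Of the S-phase genes 1, *Cdt1*, passed (-0.32, standard error 0.09, 3.31% of all genes tested were negative and 3.61% positive). The tau response of *Cdt1* was -0.38 (standard error 0.07) in *Cgas*-/- and -0.05 (standard error 0.07) in *Cgas*+/+ cells, and its call was lost in 8 of 23 alternative fits. A p that misses the threshold does not show that the tau responses were alike.

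Genes of the cycle outside the 44 were taken from lists of known mitotic, S-phase and regulatory genes. With tau, 49 of 61 further mitotic genes were lower and 1 was higher in *Cgas*-/- than in *Cgas*+/+ cells, with a median of -1.09, and 26 of 53 further S-phase genes were lower and 7 higher, with a median of -0.37 (26.2% of all genes were lower and 25.2% higher). Tau lowered 7 and raised 2 of the further mitotic genes in *Cgas*-/- cells and lowered 11 and raised 2 of the further S-phase genes (5.48% of all genes fell and 11.2% rose). HT-DNA in *Cgas*-/- cells changed 0 of both lists in edgeR, with 10 of 61 and 7 of 53 genes at an unadjusted p under 0.05, against 1688 of all 13675.

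Of 20 genes of the E2F and DREAM machinery, 10 were lower (26.2% of all genes) and 5 higher (25.2%) in *Cgas*-/- than in *Cgas*+/+ cells with tau. *Foxm1*, the activator of mitotic genes, had 5.62 ± 0.519 CPM (SD, n = 3) in *Cgas*+/+ and 2.11 ± 0.318 in *Cgas*-/- cells with tau, a difference of -1.42 (standard error 0.19, adjusted p = 4.23e-07 from edgeR). *E2f8*, a repressive E2F factor, differed by -1.73 (standard error 0.25, adjusted p = 1.5e-06 from edgeR), and *Mybl2*, which encodes B-MYB, by -1.0 (standard error 0.32, adjusted p = 0.0100 from edgeR). In *Cgas*+/+ cells *Foxm1* stood at 8.44 ± 1.40 CPM with vehicle and 3.8 ± 0.299 with HT-DNA.

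The cyclins *Ccnd1* and *Ccnd2*, which carry growth signals to the start of the cycle, rose with tau in *Cgas*-/- cells. *Ccnd1* stood at 145 ± 18.6 CPM with vehicle, 192 ± 5.11 with tau and 434 ± 6.59 with HT-DNA in *Cgas*+/+ cells and at 113 ± 3.55, 146 ± 1.60 and 115 ± 4.22 in *Cgas*-/- cells (SD, n = 3 each). *Ccnd2* stood at 2.26 ± 0.356, 6.91 ± 0.81 and 15.7 ± 1.82 CPM in *Cgas*+/+ cells in the same order of treatments and at 3.48 ± 0.235, 6.42 ± 0.483 and 3.78 ± 0.604 in *Cgas*-/- cells. In *Cgas*-/- cells tau raised *Ccnd1* by 0.37 (standard error 0.06, adjusted p = 1.29e-05 from edgeR) and *Ccnd2* by 0.88 (standard error 0.15, adjusted p = 5.21e-05 from edgeR), while the mitotic genes fell or did not pass the test. Of a list of 8 G1 genes (D-type cyclins, their kinases and *Cdk2*, *Cdc25a* and *Myc*), 3 rose (11.2% of all genes) and 2 fell (5.48%) with tau in *Cgas*-/- cells and 3 were lower and 3 higher in *Cgas*-/- than in *Cgas*+/+ cells with tau (shares of all genes 26.2% and 25.2%), among them *Myc*, the growth-promoting transcription factor, at 1.19 (standard error 0.07, adjusted p = 1.31e-14 from edgeR).

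*Cdkn1a*, the CDK inhibitor p21, stood at 497 ± 36.4, 867 ± 33.0 and 950 ± 37.7 CPM with vehicle, tau and HT-DNA in *Cgas*+/+ cells and at 351 ± 20.4, 467 ± 5.42 and 357 ± 14.5 in *Cgas*-/- cells (SD, n = 3 each). Tau raised it in *Cgas*-/- cells by 0.41 (standard error 0.05, adjusted p = 2.74e-07 from edgeR), and with tau *Cgas*-/- cells differed from *Cgas*+/+ cells by -0.89 (standard error 0.05, adjusted p = 1.25e-14 from edgeR). Its part in the levels of the mitotic genes was not tested. Of 8 CDK inhibitor genes, 1 rose and 0 fell with tau in *Cgas*-/- cells, and of 20 p53 target genes 1 rose and 4 fell (11.2% of all genes rose and 5.48% fell). Between genotypes with tau, 3 inhibitors were lower and 2 higher, and 6 p53 targets were lower and 2 higher (26.2% of all genes were lower and 25.2% higher). HT-DNA in *Cgas*-/- cells changed 0 of the 8 inhibitors, with 2 at an unadjusted p under 0.05 (1688 of all 13675 genes). It changed 5 of the 20 p53 targets, 4 of them lower (0.278% of all genes) and 1 higher (1.04%).

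Among growth factor receptors, *Csf1r*, the receptor of colony-stimulating factor 1, was lower in *Cgas*-/- than in *Cgas*+/+ cells with tau (log2 difference -0.50, standard error 0.04, adjusted p = 9.14e-12 from edgeR), and *Csf2rb*, a subunit of the GM-CSF receptor, was higher by 0.26 (standard error 0.04, adjusted p = 7.14e-07 from edgeR). Of the 5 genes tested from a list of receptors and ligands of microglial growth factors, 3 were lower (26.2% of all genes) and 2 higher (25.2%). With tau in *Cgas*-/- cells 4 of the 5 rose (11.2% of all genes), *Csf1r* by 0.63 (standard error 0.04, adjusted p = 3.29e-13 from edgeR).

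In hippocampi, where dividing cells are few, 21 of 25 mitotic genes (all but *Ccnb1*, *Bub1*, *Aurkb* and *Ube2c*) and all 19 S-phase genes passed the filter that left 16453 genes, from libraries of 25953296 to 35779977 counts. *Prc1*, a microtubule bundler of the central spindle whose exons overlap *Rccd1* on the opposite strand, was the only one called in edgeR (1.39% of all genes tested were higher and 0.122% lower). It ranged from 0.529 to 0.772 CPM (median 0.664, 17 to 22 counts) in 7 Ntg mice and from 0.806 to 1.71 (median 1.46, 23 to 52 counts) in 6 P301S mice. The groups did not overlap (0.438% of all genes), and *Prc1* was higher by 1.0 in log2 (standard error 0.20, adjusted p = 0.0321 from edgeR). At an unadjusted p under 0.05 there were 7 of 21 mitotic and 9 of 19 S-phase genes, against 2612 of all 16453 genes tested. DESeq2, whose share over all genes is not given here, called 2 mitotic and 3 S-phase genes. *Mcm3*, at 2.43 to 3.8 CPM (median 3.39) in Ntg and 3.44 to 6.41 (median 5.40) in P301S mice, had 0.65 (standard error 0.16, adjusted p = 0.0527 from edgeR), and *Mcm2*, at 5.09 to 6.11 CPM (median 5.65) and 6.21 to 7.53 (median 6.86), had 0.29 (standard error 0.08, adjusted p = 0.0915 from edgeR). All P301S mice were above all Ntg mice for *Mcm2*, and the groups overlapped for *Mcm3*. Of the fold changes, 18 of 21 mitotic and 14 of 19 S-phase values were positive (49.6% of all genes were negative), with medians of 0.37 and 0.21 (the median of all genes was 0.00). Of the 10 microglial markers 2 were called higher in P301S mice, with 8 at an unadjusted p under 0.05 and a median log2 fold change of 0.74. Of 8 astrocyte markers 1 was called higher, with 6 at an unadjusted p under 0.05 and a median of 0.38. The part of both cell types in the values of the mitotic and S-phase genes was not tested.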

How the data were processed

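RNA-seq was performed on 18 libraries of primary microglia and 13 hippocampi. The authors deposited raw read counts per gene with no normalization (17037459 to 25174764 per microglial and 25953296 to 35779977 per hippocampal library). The submitters' processing notes name GRCm38, edgeR and limma, and the aligner, counter, annotation and strand setting are not given in the sources used here. The labels name a 3′ kit (QuantSeq) and the study's methods name no library type for these libraries, so levels were not compared between genes. Members and gene lists were chosen with earlier results of these data known, and 1 listed gene was absent from the microglial table by name. Each table was filtered with filterByExpr, scaled by TMM and fitted with 1 model over all groups in edgeR 4.0.16 (R 4.3.3, limma 3.58.1), without the replicate number. Contrasts were tested by the quasi-likelihood F-test, with Benjamini-Hochberg adjustment over all 13675 or 16453 genes tested and a threshold of 0.05. CPM used TMM-scaled library sizes, and log2 CPM a prior count of 2. An exact permutation test of 3 libraries against 3 cannot go below p = 0.10 and was not used.

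Genes printed with every library's value were 12 mitotic and 10 S-phase genes chosen to cover each role, plus the 2 members of each list with the largest and the 2 with the smallest response to HT-DNA in *Cgas*+/+ cells. Outside the members, a fixed set of cyclins, CDK inhibitors, E2F and DREAM genes, *Myc*, *Csf1r* and *Csf2rb* could be named, as could the 3 called genes per list with the highest and the 3 with the lowest response to HT-DNA in *Cgas*+/+ cells. Standard errors are of the log2 fold change and were calculated as its absolute value over the square root of the quasi-likelihood F statistic. Libraries of a group differed by more than sampling noise in all 18 pairs (chi-square per degree of freedom 2.28 to 26.6), so none was merged. The values of 21.3 and 26.6 both came from pairs with HT-DNA replicate 1 of *Cgas*-/- cells, and no other pair was above 10.3. Same-numbered libraries of different groups did not deviate together over all genes (correlations of -0.085 to 0.0823 over 21 pairs), so they were not treated as pairs. Such correlations cannot show whether they share a culture or day, which could affect few genes. Promoter windows came from RefSeq (GRCm38.p6), and the first 20 transcribed bases lay in a GENCODE M21 transcript of the gene for 30 of 41 windows. Exon overlaps came from GENCODE M21. The procedure was tested on simulated data. Alternatives were DESeq2 1.42.0, RLE scaling, no filter, only the groups compared, a replicate block, a fold threshold, sex as a covariate for hippocampi and leaving out each microglial library.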

Additional observations from a re-analysis of the deposited data

Results flagged for a closer look

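The response to HT-DNA differed between genotypes in an interaction test for 24 of the 44 genes in edgeR (17.4% of all genes tested were positive and 16.6% negative). Those genes were chosen on *Cgas*+/+ libraries that enter the test, so the values (response of *Cgas*-/- minus that of *Cgas*+/+ cells, log2 scale) are descriptions. Among mitotic regulators and exit factors it was 1.68 for *Cdc20*, 1.23 for *Ccnb1*, 0.65 for *Ccna2*, 0.78 for *Aurka* and 0.71 for *Ube2c*. For genes of the kinetochore and its checkpoint it was 1.34 for *Cenpf*, 0.97 for *Bub1*, 1.05 for *Birc5* and -0.59 for *Cenpe*. For the chromosome proteins and the spindle and cytokinesis genes it was 0.56 for *Mki67*, 0.57 for *Top2a*, 0.86 for *Kif11*, 0.84 for *Kif20a*, 0.75 for *Kif23* and 0.54 for *Racgap1*. Among the S-phase genes it was 0.36 for *Mcm2*, 0.41 for *Mcm3*, 0.76 for *Mcm7*, 1.29 for *Rrm2* and 0.42 for *E2f1*, and -0.64 for *Mcm6*, -0.68 for *Cdt1*, -0.21 for *Pcna* and -0.81 for *Gins2*. Of 23 alternative fits, 19 lost the HT-DNA call of *Ccna2* and 13 that of *Ube2c*, 5 each lost those of *Kif20a* and *Mcm3*, 2 that of *Racgap1*, and 1 each those of *Cenpe* and *Kif23*. The response to tau differed for *Cdt1* by -0.32.

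In hippocampi, single mice passed a limit for distance from the rest of their group for 5 genes. Ntg mouse 71 was at 0.607 CPM for *Ccnb2* and at 1.40 CPM for *Chek1*. P301S mouse 63 was at 0.231 CPM for *Birc5* and 6.53 CPM for *Ccne2*, and P301S mouse 77 was at 13 CPM for *Fen1*. Chance alone puts about 1 in 20 groups past the limit used. Both groups of many genes were examined, so some such mice arise by chance.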

How the results depend on the processing

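Counts of called genes are given here as S-phase and then mitotic genes, and no value called in edgeR reversed under any alternative, while values that were not called did change sign (such as *Chek1* with tau in *Cgas*-/- cells, -0.26 to 0.25). Over the single genes, 9025 alternative values kept their side of the threshold, 190 lost their call and 53 gained 1. Requiring a log2 fold change beyond 1 as well left 2 and 7 genes for HT-DNA and 2 and 0 for tau in *Cgas*+/+ cells, and 0 and 0 for HT-DNA and 1 and 1 for tau in *Cgas*-/- cells. Between genotypes it left 3 S-phase genes with vehicle, 4 with tau, and 2 and 13 with HT-DNA, for the interactions 1 and 4 (HT-DNA) and 0 and 0 (tau), and 0 mitotic genes in hippocampi. Without a filter on low counts, and with only the groups compared, HT-DNA in *Cgas*-/- cells gave 1 and 2 genes and the tau interaction 1 mitotic gene. DESeq2 gave 3 and 2 genes in hippocampi and 2 S-phase genes for the tau interaction. The cause was not tested, except that the fold threshold is stricter by construction.

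Leaving out 1 library gave 13 to 15 and 22 to 24 genes for HT-DNA and 9 to 12 and 14 to 20 for tau in *Cgas*+/+ cells, and 0 to 0 and 0 to 1 for HT-DNA and 11 to 13 and 4 to 10 for tau in *Cgas*-/- cells. Between genotypes it gave 8 to 12 and 24 to 25 with vehicle, 9 to 11 and 25 to 25 with tau, and 9 to 11 and 24 to 24 with HT-DNA. The interactions ranged over 8 to 10 and 11 to 15 (HT-DNA) and 0 to 2 and 0 to 1 (tau).

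With the replicate number as a block, the mitotic genes called were 7 in place of 9 for tau in *Cgas*-/- cells and 14 in place of 15 for the HT-DNA interaction, and the other counts were those without the block. Genes with few reads, such as *Cdc6* (8 to 40 counts per library) and *Chek1* (9 to 50), are where depth limits the comparison most.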
